A study of Homo sapiens with 11 samples.

Results

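The transcripts described here carried the most ribosome footprints for their RNA in HEK293T cells, an established human cell line derived from embryonic kidney. Each deposited row is a transcript with a UCSC-style identifier, a listed length and a count, and rows with identical counts in all 11 libraries were merged into 1 feature. A feature was eligible if its listed length was from 31 to below 2000 and its mean RNA level was at least 5 and below 100 CPM (counts per 1000000 merged counts of the library). The 5% of eligible features with the highest ratio of footprint CPM to RNA CPM were taken, each CPM being the mean over 3 equally weighted genotypes. This gave 1235 densely occupied features, of 24710 eligible and 66016 in all. They were thus chosen by their measured footprint and RNA levels, and both levels and the ratio are given as a description with no test.

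The cells were wild type or knocked out for the gene that the labels call CSAM, now PCIF1, the enzyme that methylates the N6 of an adenosine that directly follows the cap of a messenger RNA. The 2 knockouts are called knockout 1 and knockout 2 after the labels' numbers, and the labels do not state whether each is a single clone. Footprints were sequenced in 1 library of wild-type cells and 2 of either knockout, and RNA in 2 libraries of each genotype. The labels do not say whether the replicates are separate cultures. If they are not, the spread behind each p-value is technical.

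Ribosome profiling digests the RNA that ribosomes do not cover and sequences the short fragments left inside them. A messenger RNA gains footprints when more of it is present, when ribosomes start on it more often, or when they move along it more slowly. The ratio of footprints to RNA, called translational efficiency when it is compared between conditions, sets the first of these aside. Most footprints come from coding regions while RNA reads come from the whole transcript, so the ratio can also depend on how much of a transcript is coding and on the region counted. Reads shared by similar transcripts enter both quantities in ways that depend on the counting.

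After merging, the footprint libraries held 8387752 to 17437453 counts and the RNA libraries 40346318 to 63551193. The files give no gene names, and the name tables used here do not list these identifiers (0 tables paired them with symbols). The knocked-out gene could therefore not be looked up, nor could the densely occupied features be sorted by function, and they are named by identifier. Replicate libraries of a genotype are given in label order.

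The densely occupied features took 9.59% of the wild-type footprint counts, 9.82% and 10.1% of those in knockout 1, and 10.2% and 10.1% of those in knockout 2. Of RNA counts they took only 2.23% to 2.37% in the 6 libraries, both extremes in knockout 2. Their footprint level ranged from 13.1 to 773 CPM with a median of 45.6, against a median of 9.90 CPM in the other 23475 eligible features. Their median RNA level was 11.4 CPM, against 13.5 in the others. The median ratio was 3.48, with quartiles of 2.96 and 4.64, where the median of the others was 0.724. High ratios were few: 239 features lay above 5, 52 above 10 and 12 above 20, while 342 lay below 3.

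**Figure D1:**
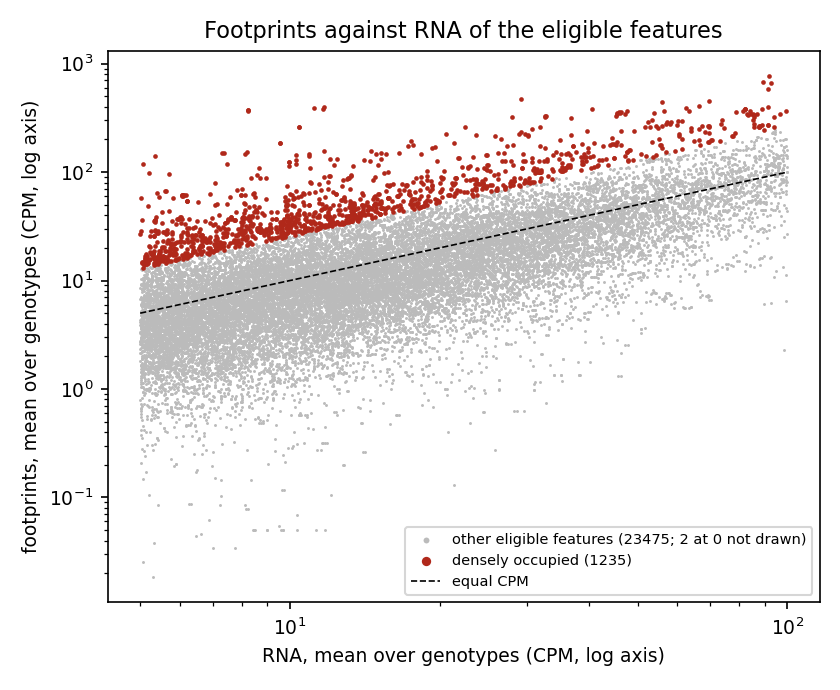
Mean footprint CPM (vertical, log axis) against mean RNA CPM (horizontal, log axis) of each eligible feature, with the 1235 densely occupied features in red and the dashed line at equal CPM. The red points form the upper edge of the cloud at every RNA level from 5 to 100 CPM, and a few between 5 and 15 CPM of RNA stand far above the rest.

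The ratio was high in every genotype. Its median over the densely occupied features was 3.36 in wild type, 3.55 in knockout 1 and 3.71 in knockout 2, and the medians of all eligible features followed the same order (0.711, 0.775 and 0.787). A feature's highest genotype ratio was a median of 1.28 times its lowest, under 1.25 times in 553 features and over 2 times in 41. The ratio was highest in knockout 2 in 615 features, in wild type in 375 and in knockout 1 in 245. When each genotype alone chose its highest 5%, 881 features were chosen in all 3 genotypes, and all 881 are among the densely occupied features. The 1235 features that wild type alone chose had median ratios of 3.38 in wild type, 3.49 in knockout 1 and 3.59 in knockout 2. Their ratios were thus as high in the knockouts, whose footprint libraries had no part in that choice. Knockout RNA did have a part, since every choice was made among the same eligible features, bounded by the mean of all RNA libraries.

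The highest ratio was that of uc021vor.3, of listed length 1029. It had footprints at 361 CPM in wild type, 430 and 427 CPM in knockout 1 and 345 and 335 CPM in knockout 2, while its RNA was 8.64 and 6.94 CPM, 10.04 and 10.1 CPM, and 6.98 and 6.61 CPM. The ratio was 45.8 over the genotypes, 46.4 in wild type, 42.5 in knockout 1 and 50.1 in knockout 2. Knockout 1 was highest in both assays, and its log2 difference from knockout 2 was 0.33 in footprints (edgeR adjusted p = 0.0045) and 0.52 in RNA (edgeR adjusted p = 0.0105). Near it in the files, though not adjacent, stood uc031rpa.2 and uc002tsn.3 (both of listed length 1066), with ratios of 45.7 and 44.6 and nearly the same counts in each library. With counts so nearly equal, these 3 features are read as 1 observation and not 3, and whether they share reads was not tested.

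A second such group held uc002ebh.4 (listed length 516, ratio 34.9) and uc059tma.1 (listed length 518, ratio 33.0). The footprints of uc002ebh.4 were 388 CPM in wild type, 366 and 393 CPM in knockout 1, and 446 and 367 CPM in knockout 2. Its RNA was 11.9 and 12.5 CPM in wild type, 11.6 and 12.2 CPM in knockout 1, and 9.15 and 9.86 CPM in knockout 2. The lower RNA of knockout 2 went with a ratio of 42.8 there, against 31.7 in wild type and 31.9 in knockout 1. A further pair, uc031uxg.1 and uc001ejt.4 (both of listed length 155, ratios 25.1 and 25.02), lay 91 lines apart in the files with counts within 5% of each other in every library. The footprints of uc031uxg.1 were 261 CPM in wild type, 222 and 242 CPM in knockout 1, and 302 and 279 CPM in knockout 2. Its RNA was lowest in wild type, at 7.73 and 9.62 CPM against 10.5, 11.1, 10.6 and 12.9 CPM in the knockouts. The ratio of uc031uxg.1 was 30.1 in wild type, 21.5 in knockout 1 and 24.7 in knockout 2.

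**Figure D2:**
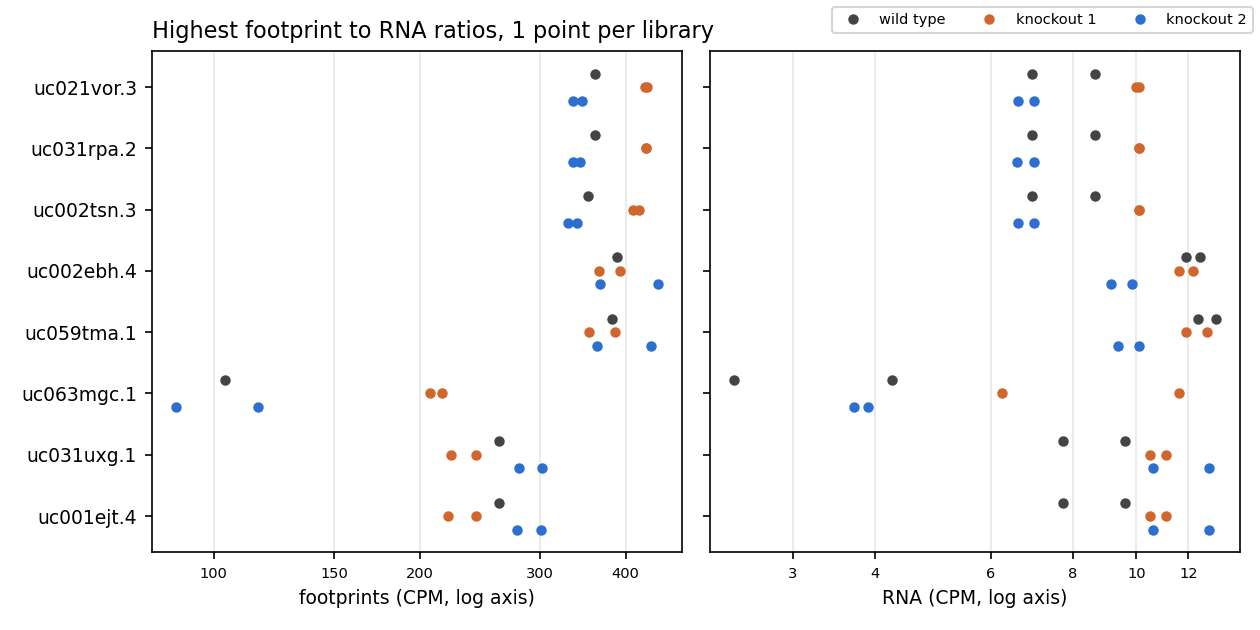
Footprint CPM (left, log axis) and RNA CPM (right, log axis) of the 8 features with the highest ratios, at most 1 per block of 20 lines, with 1 point per library coloured by genotype. Footprints lie between 88.1 and 446 CPM while RNA lies between 2.44 and 13.2 CPM, and the first 3 features have nearly the same values.

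Other features with high ratios led their class of listed length. In the class up to 100 this was uc061dan.1 (listed length 80, ratio 23.6), with footprints of 109 to 128 CPM in the 5 libraries and RNA of 4.11 to 5.40 CPM in the 6. In the class over 100 to 200 it was uc063mgc.1 (listed length 117, ratio 26.04), whose footprints were 104 CPM in wild type, 207 and 216 CPM in knockout 1, and 116 and 88.1 CPM in knockout 2. The class over 200 to 400 was led by uc003lbt.4 (listed length 296, ratio 19.0), with ratios of 19.9, 19.7 and 17.7 in wild type, knockout 1 and knockout 2. The highest footprint level was that of uc064beo.1 (listed length 154, ratio 8.41), with 762 CPM in wild type, 800 and 877 CPM in knockout 1, and 717 and 718 CPM in knockout 2, at 77.3 to 108 CPM of RNA.

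At the threshold the ratio changed little from one feature to the next. The 3 features just inside were uc002csm.4 (2.5773), uc010nrn.4 (2.5767) and uc003gjg.3 (2.5764), and the 3 just outside were uc032cjy.2 (2.5747), uc001fct.4 (2.5743) and uc064oty.1 (2.5728). The first of these, uc002csm.4, also had the lowest footprint level of all densely occupied features: 8.10 CPM in wild type, 12.5 and 14.7 CPM in knockout 1, and 17.0 and 18.0 CPM in knockout 2. Its ratio was 1.51 in wild type, 2.87 in knockout 1 and 3.43 in knockout 2, so wild type alone would not have chosen it.

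Densely occupied features lay together in the files. Lists of this kind usually follow the order of the genome, though the files give no positions, and features were counted in blocks of 20 lines. The 1235 features fell in 566 of the 6318 blocks that held an eligible feature, and 291 blocks held more than 1. In the blocks with a densely occupied feature, 1235 of 2607 eligible features (47.4%) were densely occupied. Each of these blocks holds at least 1 by definition, so 566 of the 2607 are fixed by that choice, and no expected share was computed. In 114 blocks with at least 2 eligible features all of them were, which took in 424 features. Neighbouring transcripts that share exons share reads, so they are not separate cases. Of the 1235 features, 338 had a partner with counts within 5% in all 11 libraries, and linking such partners left 1037 groups. Only 7 features had such a partner more than 40 lines away. A further 146 features (11.8%) stood for more than 1 identical row, a share close to that of the other eligible features (11.5%).

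The 3 fullest blocks held 38 densely occupied features, and every eligible feature in them was one. In the fullest, 14 features of listed length 54 to 357 had ratios of 2.80 to 6.33, led by uc058oqt.1. The footprints of uc058oqt.1 were 174 CPM in wild type, 174 and 188 CPM in knockout 1, and 186 and 174 CPM in knockout 2, and its RNA ranged from 24.8 to 30.7 CPM over the 6 libraries. No genotype stood apart in it. Another block held 11 features with ratios of 6.48 to 10.1, led by uc060qrf.1, with footprints of 164 to 198 CPM and RNA of 16.7 to 19.0 CPM. The remaining one differed from both. Its 13 features had ratios of 3.94 to 6.38 and were led by uc002gii.2, with footprints of 29.9 CPM in wild type, 35.0 and 34.3 CPM in knockout 1, and 49.1 and 52.9 CPM in knockout 2. Footprints of 8 of the 13 were called lower in knockout 1 than in knockout 2 (edgeR quasi-likelihood test, Benjamini-Hochberg adjusted p under 0.05), and RNA of 6 of the 13 was. Of all features tested, 3.77% were lower in footprints and 3.01% in RNA, and of eligible ones 4.48% and 4.23%. These 13 neighbours changed alike, by -0.56 to -0.24 in footprints and -0.39 to -0.32 in RNA (log2). They may share reads and are not separate cases. The median log2 differences of the block were -0.39 in footprints and -0.38 in RNA, so the efficiencies of its features differed by a median of -0.00 and none (0) was called.

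Listed length, which bounded eligibility but did not choose among eligible features, was somewhat shorter in the densely occupied ones. Its median was 287, against 338 in the other eligible features. With 1 feature per block (566 densely occupied and 6318 eligible) the medians were 316.5 and 455. Of eligible features, 7.06% were densely occupied in the class up to 100, 5.20% in that over 100 to 200, 5.57% in that over 200 to 400, 4.36% in that over 400 to 800 and 3.84% in that over 800. The listed lengths of 117, 118, 139 and 151 were the most frequent, with 7 features each, and all 7 of listed length 117 came from 1 stretch of the files described below. By RNA level, 5.91% of eligible features were densely occupied at 5 to 10 CPM, 4.86% at 10 to 20, 3.92% at 20 to 50 and 4.87% at 50 to 100. RNA level is the denominator of the ratio, so these shares are a description only.

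The first comparison between genotypes asked whether ribosome occupancy beyond RNA differed between the knockouts and wild type. In every test here the spread was that between libraries of the same genotype. It holds no variation between separately made knockouts, so a call is not a measure of how reproducible an effect of the loss is. The features were chosen by a mean over genotypes that includes the lone wild-type footprint library, so this comparison is not fully independent of the choice. Counts from a choice without wild type are given too. That choice rests on the ratios of the knockouts, the other side of the comparison, so it is not independent either. Features were tested for translational efficiency as the interaction term of 1 edgeR model over all 11 libraries, and all 1235 passed the filter on low counts. Of these, 116 fell in 68 blocks and 59 rose in 33 blocks in the mean of the knockouts against wild type (edgeR, adjusted p under 0.05). The shares were 9.39% lower and 4.78% higher, against 4.09% lower and 1.53% higher of all features tested and 4.90% and 1.51% of eligible ones. The median log2 change was -0.02, against -0.01 in the eligible features, so more densely occupied features were called in either direction without a shift of the whole group. More footprints were counted on them: the median count in the wild-type footprint library was 372, against 88 for eligible features. Among eligible features with a mean count of at least 50 in each assay, 5.86% fell and 2.23% rose. All of the 1235 met that minimum, and 122 of them fell and 69 rose. Such a minimum does not make depth equal, and whether depth accounts for the larger shares was not tested.

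The direction followed listed length. The 116 features that fell had a median listed length of 145, with 87 of them at 200 or less, and the 59 that rose had a median of 702, with 47 over 400. In those that fell, the median ratio was 4.43 in wild type, 3.30 in knockout 1 and 3.03 in knockout 2. Their median log2 change was 0.21 in RNA and -0.44 in footprints. In those that rose, the median ratio was 2.41 in wild type, 3.69 in knockout 1 and 4.92 in knockout 2, with median log2 changes of -0.22 in RNA and 0.50 in footprints.

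All eligible features showed the same order by listed length. Wild-type efficiency rests on 1 footprint library. A shift of that library by listed length cannot be told apart from a change in the knockouts. Up to a listed length of 100, efficiency fell in 26 of 136 densely occupied features and rose in 0 (1 at an unadjusted p under 0.05 and 0 by DESeq2). The median log2 change was -0.29, against -0.30 in the eligible class, of which 15.2% fell and 0.647% rose. Over 100 to 200, efficiency fell in 61 of 294 and rose in 1, with a median of -0.24 against -0.22, and 11.3% of the eligible class fell and 0.393% rose. Over 200 to 400 there were 27 lower and 11 higher of 361, with medians of -0.10 and -0.08, and 4.19% lower and 0.934% higher in the eligible class. These 3 classes thus had medians close to those of all eligible features. Over 400 to 800, efficiency rose in 24 of 298 and fell in 2, with a median of 0.21 against 0.08, and 1.56% of the eligible class rose and 0.221% fell. Over 800 there were 23 higher of 146 and 0 lower (5 at an unadjusted p under 0.05 and 0 by DESeq2), with a median of 0.34 against 0.22, and 4.49% of the eligible class rose. In both longer classes the median lay above that of all eligible features.

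**Figure D3:**
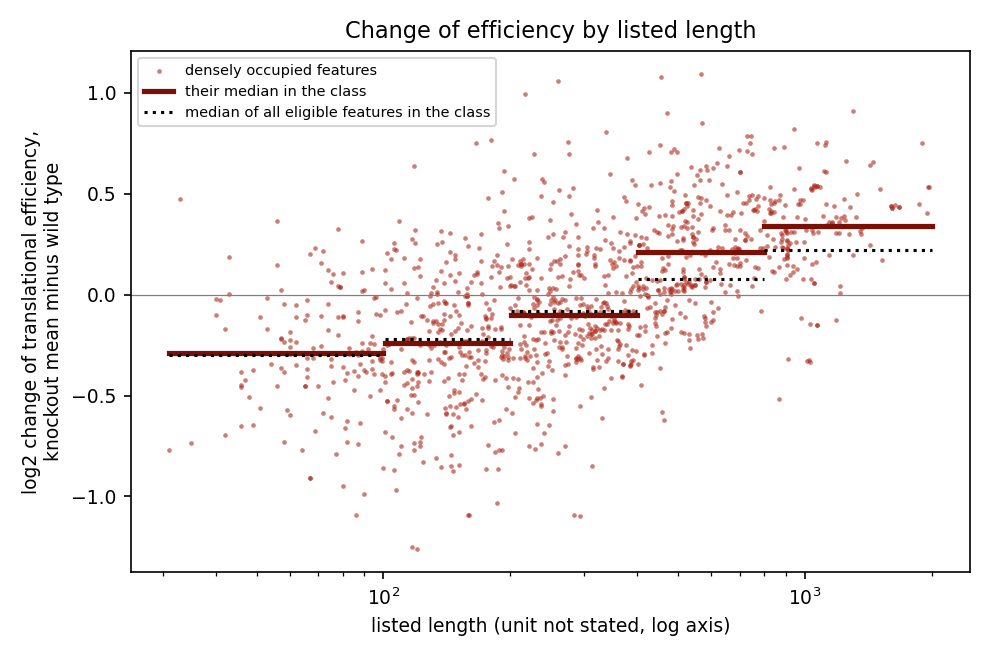
Log2 change of translational efficiency in the knockout mean against wild type (vertical) by listed length (horizontal, log axis), with 1 point per densely occupied feature, their class medians as red bars and the medians of all eligible features as dotted lines. The red bars go from -0.29 in the class up to 100 to 0.34 in that over 800, and lie above the dotted lines in the 2 longest classes.

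When wild type was left out of the ratio, 83 features fell and 76 rose, and 1150 of the 1235 features were chosen again. Lower calls then hardly outnumbered higher ones, but a choice by high knockout ratios can itself favour rises. The order by listed length held in that list too, with 18 lower and 0 higher in the class up to 100 and 36 higher and 0 lower in that over 800. The count of risers was 36 without footprint replicate 2 of knockout 1, 38 without footprint replicate 1 of knockout 2 and 31 without RNA replicate 1 of knockout 1. DESeq2 called 27 higher and 98 lower.

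The deepest fall in efficiency was that of uc062mon.1, of listed length 120. It had footprints at 53.0 CPM in wild type, 38.8 and 32.1 CPM in knockout 1, and 27.9 and 24.1 CPM in knockout 2, and its RNA was 6.99 and 6.70 CPM, 7.39 and 8.33 CPM, and 9.06 and 9.54 CPM. Footprints were lower and RNA higher in every knockout library than in wild type. The log2 change in efficiency was -1.26 ± 0.16 (SE; edgeR adjusted p = 7.63e-06), with ratios of 7.74, 4.51 and 2.79 in wild type, knockout 1 and knockout 2. A neighbour 5 lines on, uc062moq.1 (listed length 159), changed alike, by -1.09 ± 0.15 (SE; edgeR adjusted p = 1.32e-05), and may share its reads.

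The other 2 named falls had the same form. For uc031uhi.2 (listed length 293) footprints were 118 CPM in wild type, 84.7 and 78.4 CPM in knockout 1, and 81.1 and 79.5 CPM in knockout 2, and RNA was 11 and 10.7 CPM in wild type and 13.1 to 16.0 CPM in the knockouts. Its log2 change in efficiency was -1.10 ± 0.13 (SE; edgeR adjusted p = 7.52e-06), and the knockouts were close to each other (ratios of 5.44 and 5.77, against 10.9 in wild type). For uc060xnp.1 (listed length 186) footprints were 85.4 CPM in wild type, 82.0 and 67.7 CPM in knockout 1, and 46.0 and 48.6 CPM in knockout 2, so most of the drop was in knockout 2. RNA of uc060xnp.1 was 5.70 and 7.77 CPM in wild type, 7.78 and 8.51 CPM in knockout 1, and 9.0 and 9.27 CPM in knockout 2. Its log2 change in efficiency was -1.03 ± 0.16 (SE; edgeR adjusted p = 9.70e-05).

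Among the rises, uc001lem.4 (listed length 566) changed most. Its footprints were 14.7 CPM in wild type, 18.1 and 20.6 CPM in knockout 1, and 22 and 21.0 CPM in knockout 2, while its RNA was 7.82 and 7.60 CPM, 5.43 and 4.90 CPM, and 3.77 and 4.21 CPM. The log2 change in efficiency was 1.09 ± 0.20 (SE; edgeR adjusted p = 5.61e-04), made up of -0.72 in RNA and 0.38 in footprints, and the footprint part did not pass on its own (edgeR adjusted p = 0.126). RNA of uc002lvg.4 (listed length 455) also fell, from 7.19 and 6.49 CPM to 4.91 and 5.26 CPM in knockout 1 and 4.64 and 3.58 CPM in knockout 2, while its footprints rose from 26.1 CPM to 31.2 and 42.0, and 47.5 and 44.0. Its efficiency changed by 1.08 ± 0.20 (SE; edgeR adjusted p = 6.65e-04).

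The remaining rises rested on footprints. For uc060sic.1 (listed length 260) footprints were 43.4 CPM in wild type, 65.2 and 87.0 CPM in knockout 1, and 118 and 104 CPM in knockout 2, and RNA overlapped between genotypes at 14.4 to 19.6 CPM. Its efficiency changed by 1.06 ± 0.20 (SE; edgeR adjusted p = 0.00272). Footprints of uc063ndi.1 (listed length 217) were 15.1 CPM in wild type, 31 and 30.04 CPM in knockout 1, and 27.2 and 24.2 CPM in knockout 2, with RNA of 5.85 to 8.88 CPM. Its efficiency changed by 0.99 ± 0.19 (SE; edgeR adjusted p = 0.00117). These 2 features have listed lengths below 400, unlike most features that rose.

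**Figure D4:**
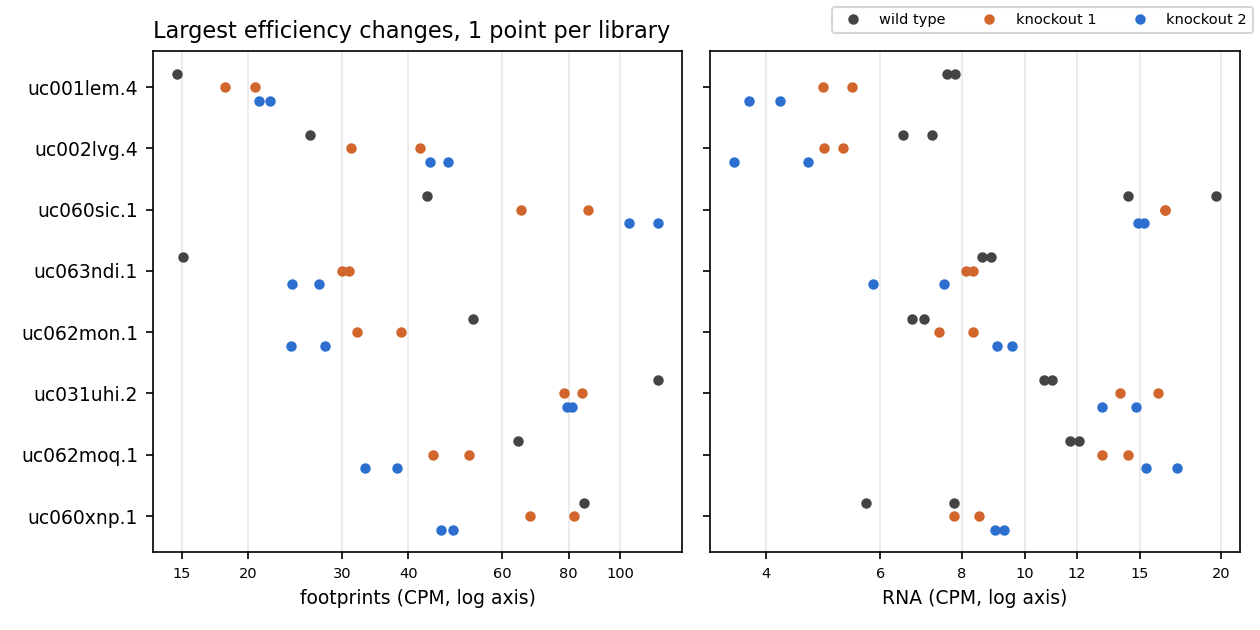
Footprint CPM (left, log axis) and RNA CPM (right, log axis) of the 4 features with the largest rise in translational efficiency (upper 4) and the 4 with the deepest fall (lower 4), with 1 point per library coloured by genotype. The wild-type footprint point lies below all 4 knockout points in the upper 4 features and above them in the lower 4.

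The second comparison was of footprints alone. Of the 1235 densely occupied features, 196 fell in 105 blocks and 176 rose in 103 blocks when the knockouts were averaged (edgeR, adjusted p under 0.05). These are 15.9% and 14.3%, against 6.67% lower and 4.6% higher of all features tested, 7.97% and 5.29% of eligible ones, and 9.57% and 7.87% of eligible ones with a mean count of at least 50. At that minimum 207 densely occupied features fell and 217 rose. Called changes had a median size of 0.48 (log2), and 4 features rose and 0 fell by over 2-fold. By listed length the falls were in the shorter classes, with 28 lower and 11 higher up to 100 (18.8% and 3.83% of the eligible class), 81 and 27 over 100 to 200 (15.1% and 3%), and 72 and 35 over 200 to 400 (8.23% and 4.56%). The rises were in the longer ones, with 69 higher and 11 lower over 400 to 800 (6.41% and 2.64%) and 34 and 4 over 800 (8.58% and 1.19%). Wild type had 1 library, so its own spread in footprints is not known. Higher calls outnumbered lower ones when features were chosen without wild type (204 higher and 158 lower). For the same 1235 features they also did when footprint replicate 1 of knockout 1 was left out of the fit (249 higher and 208 lower). DESeq2 called 129 lower and 83 higher.

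The largest rise in footprints was that of uc003uew.4 (listed length 196), from 24.3 CPM in wild type to 80.6 and 96.7 CPM in knockout 1 and 61.0 and 61.1 CPM in knockout 2, a log2 change of 1.5 ± 0.14 (SE; edgeR adjusted p = 6.32e-15). Its RNA rose with it, from 2.69 and 2.61 CPM to 7.46 and 6.96, and 5.55 and 4.79, a log2 change of 1.25 ± 0.14 (SE; edgeR adjusted p = 2.09e-07). Efficiency of uc003uew.4 changed by 0.25 ± 0.18 (SE) and did not pass the test. The same held for uc010aeu.2 (listed length 316), whose footprints were at 32.8 CPM in wild type and 72.9 to 84.2 CPM in the knockouts (log2 change 1.17 ± 0.13, SE; edgeR adjusted p = 1.83e-11). Its RNA was 3.92 and 4.70 CPM in wild type and 6.61 to 9.90 CPM in the knockouts (log2 change 0.97). Footprints of uc057ugw.1 (listed length 274) rose from 12 CPM to 32.5 and 44.2 CPM in knockout 1 and 19.2 and 24.8 CPM in knockout 2 (log2 change 1.16; edgeR adjusted p = 5.55e-07). Those of uc003nfq.4 (listed length 94) rose from 32.2 CPM to 80.04, 90.4, 55.6 and 54.9 CPM (log2 change 1.00; edgeR adjusted p = 3.18e-09).

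Of the falls in footprints, uc062mon.1, described above, changed by -0.89. An equal change was seen in uc064yhg.1 (listed length 107), from 80.02 CPM in wild type to 68.9 and 54.0 CPM in knockout 1 and 35.6 and 32.6 CPM in knockout 2 (-0.89 ± 0.11, SE; edgeR adjusted p = 1.52e-09). Its RNA did not pass the test (0.08). Footprints of uc058wtx.1 (listed length 67) fell from 112 CPM to 85.9 and 78.0, and 54.4 and 54.3 (log2 change -0.84; edgeR adjusted p = 8.61e-10), again with knockout 2 lowest. In uc001rdf.4 (listed length 146) knockout 1 was lowest instead. It had 40.2 CPM in wild type, 19.7 and 16.1 CPM in knockout 1, and 30.3 and 29.9 CPM in knockout 2 (log2 change -0.88; edgeR adjusted p = 1.47e-07).

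The third comparison was of RNA. Here 131 densely occupied features rose in 73 blocks and 68 fell in 37 (edgeR, adjusted p under 0.05). The risers were 10.6%, against 3.89% of all features tested and 6.17% of eligible ones. The features that fell were 5.51%, against 4.91% of all features tested and 6.18% of eligible ones, a share near the background. Both shares were 6.27% in eligible features with a mean count of at least 50, a minimum at which 130 densely occupied features rose and 71 fell. The median log2 change was 0.06, against 0.00 in eligible features. RNA rose mainly in the shorter classes, opposite to footprints. Up to a listed length of 100, 26 of 136 rose and 0 fell (0 at an unadjusted p under 0.05 and 0 by DESeq2), against 10.9% and 1.97% of the eligible class. Over 100 to 200, 46 rose and 3 fell (8.54% and 2.58% of the eligible class), and over 200 to 400, 27 rose and 10 fell (6.54% and 3.84%). Over 400 to 800 the calls were even, with 25 higher and 27 lower (4.56% and 7.46%), and over 800 there were 7 higher and 28 lower (2.5% and 15.3%). The count of risers was 65 when wild-type replicate 1 was left out, and 57 and 76 without replicates 1 and 2 of knockout 1. The count of falls was 42, 22 and 32 in the same order and 38 without replicate 1 of knockout 2, and DESeq2 called 105 higher and 39 lower.

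After uc003uew.4 and uc010aeu.2, the largest rises in RNA among features whose knockout libraries all lay above wild type were those of uc002mbk.3 (listed length 413) and uc062vlr.1 (listed length 170). RNA of uc002mbk.3 was 3.57 and 4.27 CPM in wild type, 4.96 and 4.96 CPM in knockout 1, and 7.37 and 7.15 CPM in knockout 2 (log2 change 0.67; edgeR adjusted p = 9.00e-04). RNA of uc062vlr.1 was 4.52 and 4.23 CPM in wild type and 5.73 to 6.94 CPM in the knockouts (log2 change 0.56; edgeR adjusted p = 0.00378). The deepest fall was that of uc062dqt.1 (listed length 177), from 14.2 and 18.3 CPM to 9.27 and 9.64 CPM in knockout 1 and 9.65 and 8.96 CPM in knockout 2 (log2 change -0.74 ± 0.10, SE; edgeR adjusted p = 9.92e-06). Falls followed in uc001lem.4 (-0.72), uc001dfd.4 (listed length 396; -0.70) and uc021uug.2 (listed length 683; -0.58). None of uc062dqt.1, uc001dfd.4 and uc021uug.2 passed the test of efficiency.

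The assays combined in several ways. Of the 131 features whose RNA rose, 47 also rose in footprints, 60 were not called and 24 fell, and the efficiency of all 24 was called lower. Of the 68 whose RNA fell, 11 fell in footprints, 51 were not called and 6 rose, and the efficiency of all 6 was called higher. The change in efficiency is the footprint change minus the RNA change, so the calls for these 24 and 6 features largely follow from the other assays. No joint counts over eligible features are given here, so these counts are a description only. In 123 features footprints rose with no call in RNA, and in 161 they fell with none.

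**Figure D5:**
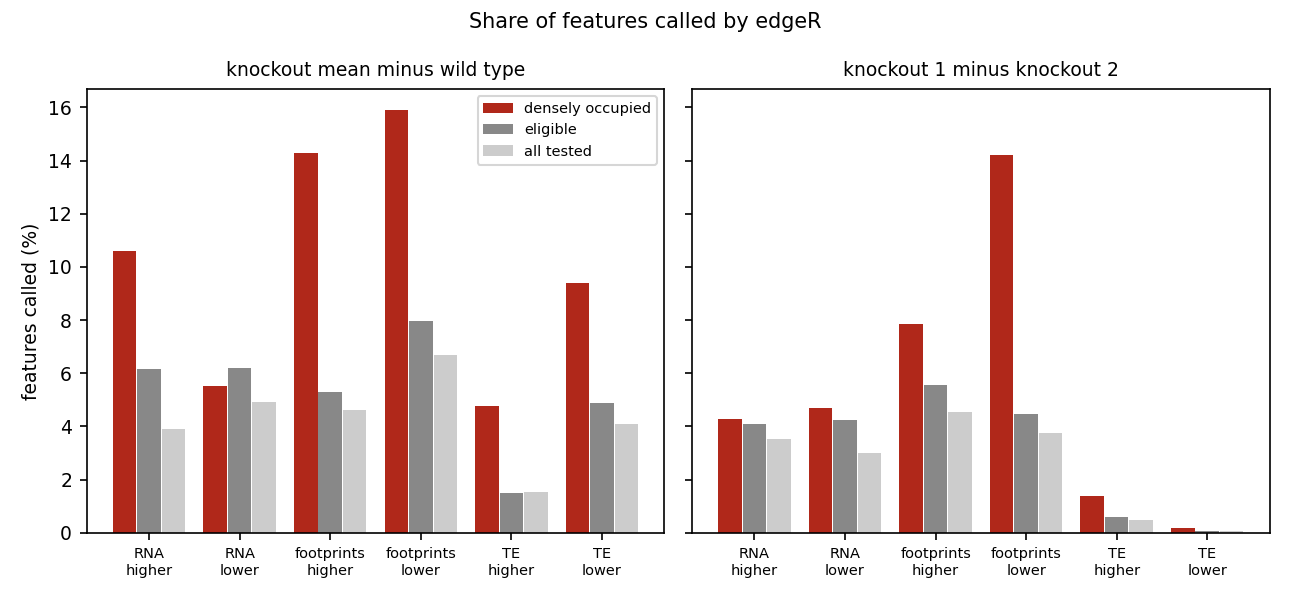
Percent of features called by edgeR (vertical) in each assay and direction, for the knockout mean against wild type (left) and for knockout 1 against knockout 2 (right), with bars for the 1235 densely occupied features, all eligible features and all features tested; TE is translational efficiency. The red bars are highest in footprints, at 15.9% lower and 14.3% higher on the left and 14.2% lower on the right, while for RNA on the right they lie close to the grey ones.

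The last comparison set the knockouts against each other. In footprints, 175 densely occupied features were lower in knockout 1 than in knockout 2, in 85 blocks, and 97 were higher, in 53 blocks (edgeR, adjusted p under 0.05). These are 14.2% and 7.85%, against 3.77% lower and 4.54% higher of all features tested and 4.48% and 5.57% of eligible ones. Footprint depth differed between these sets, with a median count of 468 against 115 for eligible features in replicate 1 of knockout 1. No background at a minimum count was made for this comparison, and whether depth accounts for the larger shares was not tested. In RNA, 58 were lower and 53 higher (4.70% and 4.29%, against 3.01% and 3.52% of all features tested and 4.23% and 4.10% of eligible ones). In efficiency, 17 were higher and 2 lower (1.38% and 0.162%, against 0.483% and 0.059% of all features tested and 0.581% and 0.0532% of eligible ones). The excess of lower footprint calls depended on the libraries: 71 were lower and 77 higher without replicate 1 of knockout 1, and 76 and 76 without replicate 1 of knockout 2. Without replicate 2 of knockout 2, 112 were lower and 60 higher, and DESeq2 called 56 lower and 59 higher.

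Single features differed clearly between the knockouts. Footprints of uc061ynf.1 (listed length 454) were 21.0 and 27.2 CPM in knockout 1 and 51.1 and 55.3 CPM in knockout 2, with 17.5 CPM in wild type (log2 difference -1.16 ± 0.11, SE; edgeR adjusted p = 5.01e-14). Its RNA was 6.07 and 5.81 CPM in knockout 1 and 8.91 and 13.4 CPM in knockout 2 (-0.95). In uc003nxh.4 (listed length 632) it was knockout 1 that lay apart from the other genotypes: footprints were 100.6 CPM in wild type, 46.3 and 60.3 CPM in knockout 1, and 107 and 117 CPM in knockout 2 (log2 difference -1.08 ± 0.10, SE; edgeR adjusted p = 9.63e-15). In uc064ypb.1 (listed length 193) it was knockout 2 that lay apart. Its footprints were 22.5 CPM in wild type, 22.8 and 21.0 CPM in knockout 1, and 9.18 and 9.32 CPM in knockout 2 (1.24 ± 0.14, SE, edgeR adjusted p = 5.71e-11). RNA differed in the same direction in uc003nxh.4 (log2 difference -0.60, edgeR adjusted p = 0.00042) and in uc064ypb.1 (0.63, edgeR adjusted p = 0.00409). Efficiency was called for none of uc061ynf.1, uc003nxh.4 and uc064ypb.1.

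A stretch of 216 lines, singled out after its values were seen, held 9 densely occupied features among 28 eligible ones. Their listed lengths were 94 once, 117 in 7 features and 121 once. Summed over the 9, footprints were 812 CPM in wild type, 1611 and 1663 CPM in knockout 1, and 908 and 765 CPM in knockout 2, and RNA was 93.8 and 103 CPM, 314 and 221 CPM, and 125 and 91.8 CPM. Knockout 1 was about as far above wild type as above knockout 2. In each of the 9, both knockout 1 libraries lay above both knockout 2 libraries in footprints and in RNA. Footprints of all 9 passed the test of knockout 1 against knockout 2 (log2 differences of 0.61 to 1.26) and RNA of 4 did (7 by DESeq2). Of all features tested, 4.54% were higher in knockout 1 in footprints and 3.52% in RNA. The stretch was picked for such values, so these counts are a description only. Efficiency was called for none (0; 3 were lower and 0 higher at an unadjusted p under 0.05, and 0 were called by DESeq2). RNA was highest of all in uc003nhk.4 relative to knockout 2, with 26.6 and 17.8 CPM in knockout 1, 6.77 and 6.09 CPM in knockout 2, and 7.05 and 6.08 CPM in wild type (log2 difference 1.74 ± 0.16, SE; edgeR adjusted p = 1.58e-06). Among the 9 is also uc003nfq.4, described above for its rise against wild type. Most of the 9 have the same listed length and all a similar pattern, and whether reads shared between copies enter these counts was not tested.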

How the data were processed

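The authors deposited 1 file per library (5 footprint and 6 RNA libraries) with raw counts for 182398 transcripts in the same order, not scaled. Per the labels' protocols, footprints were made with RNase I, linker ligation, rRNA depletion and circularisation, and RNA libraries with TruSeq. Tools listed in the submitters' processing notes are TopHat2 2.0.9, Bowtie2 2.1.0 and CASAVA 1.8, with the genome build hg38. The counting program, its strand setting and its handling of shared reads are not given in the sources used here, nor is the unit of the deposited length.

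The 82937 rows with a count were merged to 66016 features. A feature needed 10 or more counts in 2 or more libraries of an assay to be tested. The tests used edgeR 4.0.16 (quasi-likelihood, robust, TMM within each assay, two-sided, Benjamini-Hochberg over all features tested, threshold 0.05), in R 4.3.3, with DESeq2 1.42.0 as an alternative. All libraries of a fit shared 1 spread, and scaling within each assay hides a change shared by all transcripts. The SE is the log2 change over the square root of F. On simulated data for the knockout mean against wild type, with known log2 changes of 1 and 0.5, the fits recovered 96% and 62% of changed features in RNA (57362 tested), 57% and 14.5% in footprints (44094) and 36% and 2% in efficiency (43750). The changed features (100 per size in RNA, 200 in footprints and 100 in efficiency) were drawn at any depth that passed the filter. All features of an assay had 1 spread. Recovery of the densely occupied features was not simulated separately and may differ. Features named were the 8 highest ratios, those next to the threshold, the largest tested changes with groups that do not overlap, the extremes of footprint level, and the leaders of length classes and of the fullest blocks, with at most 1 per block of 20 lines among the highest ratios and the changes. The densely occupied features and the lists were chosen with earlier results of these data known. Overlapping transcripts make features dependent.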

Additional observations from a re-analysis of the deposited data

Results flagged for a closer look

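The 2 knockouts differed by a direct test in 11 named features (12 results), given as log2 changes of knockout 1 minus knockout 2 in edgeR. These features were named because they passed that test with among the largest differences, so their passing was fixed by the choice. Of all features tested, 4.54% were higher and 3.77% lower in footprints, 3.52% and 3.01% in RNA, and 0.483% and 0.059% in efficiency. In translational efficiency the differences were 1.01 in uc060xnr.1 (ratios of 7.92 in wild type, 6.19 in knockout 1 and 3.19 in knockout 2), 0.82 in uc058wuc.1 (4.002, 3.09 and 1.79), -0.91 in uc060svq.1 (2.18, 2.08 and 4.04) and -0.69 in uc002poq.4 (2.91, 4.68 and 7.76). In footprints they were 1.26 in uc003njs.4, 1.24 in uc064ypb.1, -1.16 in uc061ynf.1 and -1.08 in uc003nxh.4. In RNA they were 1.74 in uc003nhk.4, 1.72 in uc003nfu.4, -1.21 in uc001rdf.4 and -0.95 in uc061ynf.1. RNA of uc003nfu.4 was 17.5 and 9.96 CPM in the libraries of knockout 1, against 4.49 and 3.54 CPM in knockout 2, so those of knockout 1 themselves lay far apart. RNA of uc001rdf.4 was 6.30 and 6.21 CPM in knockout 1 and 14.5 and 13.5 CPM in knockout 2, on either side of 9.25 and 10.3 CPM in wild type.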

How the results depend on the processing

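The number of features called changed with the tool and single libraries, and the lists differed in size. The highest 2.5% held 617 features, the highest 10% 2471 and 1 per block 566. RNA of 10 to below 100 CPM gave 799, so these counts compare only as shares. For the knockout mean against wild type, 10.2%, 9.79%, 11.7% and 15% of these lists rose in RNA, against 10.6% of the 1235. In footprints 19.3%, 13.6%, 16.1% and 17.8% fell, against 15.9%. Of the 1235 features, 1150, 1185 and 1143 were chosen again without wild type, knockout 1 or knockout 2, 1203 with libraries equally weighted, 1206 with means of log2(CPM + 0.5), and 1060 when identical rows were not merged. The median listed length of 287 became 316.5 with 1 feature per block, 290 with RNA of 10 to below 100 CPM and 286 with RNA of 5 to below 50 CPM. In what follows, pairs of counts are higher then lower calls.

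For the knockout mean against wild type, choosing the highest 2.5% gave 63 and 36 in RNA, 76 and 119 in footprints, and 33 and 63 in efficiency. The highest 10% gave 242 and 158, 322 and 335, and 107 and 204. With 1 feature per block the counts were 66 and 33, 91 and 91, and 31 and 58. With RNA of 10 to below 100 CPM, 105 rose in footprints and 25 in efficiency. By DESeq2, 39 fell in RNA, 83 rose and 129 fell in footprints, and 27 rose in efficiency. Leaving out 1 library at a time gave 57 to 166 higher and 22 to 78 lower in RNA, 134 to 249 and 163 to 208 in footprints, and 31 to 83 and 102 to 152 in efficiency. Choosing without wild type gave 117 and 82 in RNA and 204 and 158 in footprints, where the latter split turned.

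For knockout 1 against knockout 2, the highest 2.5% gave 35 lower in RNA, 95 lower in footprints and 1 lower in efficiency. The highest 10% gave 105 and 125 in RNA, 188 and 304 in footprints, and 7 lower in efficiency. With 1 feature per block the counts were 28 and 25, 44 and 75, and 8 and 1. With RNA of 10 to below 100 CPM they were 34 and 35, 57 and 103, and, for lower efficiency, 1. DESeq2 gave 59 and 56 in footprints and 1 lower in efficiency, and choosing without knockout 2 gave 1 lower in efficiency. Leaving out 1 library at a time gave 28 to 74 and 16 to 95 in RNA, 60 to 100 and 71 to 223 in footprints, and 0 to 22 and 0 to 9 in efficiency. In efficiency the 17 higher calls became 0 without footprint replicate 1 and 3 without RNA replicate 1 of knockout 1. In RNA the 58 lower calls became 20 and 16 without replicates 1 and 2 of knockout 1, 25 without replicate 2 of knockout 2 and 95 without either wild-type replicate. The 53 higher calls became 30, 28 and 35 without the same 3 knockout libraries. The cause was not tested.

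Replicate numbers gave no clear sign of pairing: deviations of same-numbered libraries correlated across features by -0.0877, 0.1491 and 0.0679 in RNA and -0.0249 in footprints. These weak values do not exclude pairing, and in footprints only the knockouts could be checked. For the knockout mean, a fit with the replicate number as a block called 179 higher and 95 lower in RNA, against 131 and 68 without it. It called 165 and 190 in footprints, 72 and 123 in efficiency, and 5 lower in efficiency between the knockouts. The directions of the 36 named changes held in all 456 repeats, and 19 repeats missed the threshold. Of these 9 (of 16) were for uc002poq.4 and 5 (of 12) for uc003nfu.4, while uc060xnr.1 was lost without footprint replicate 1 of knockout 1, and uc058wuc.1 and uc060svq.1 without that library and without RNA replicate 1 of knockout 1. Depth was lowest in footprints, with a median count of 372 in wild type for the densely occupied features.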
